A study of Arabidopsis thaliana with 109 samples.

Results

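Of the 1408 PIF7 binding events deposited for Arabidopsis thaliana seedlings after 30 min in light of a low red to far-red ratio (low R:FR), 424 events (30.1%) were assigned a short sequence word (k-mer) that does not hold the canonical G-box hexamer, or no k-mer at all. They are the events described here. They were picked by the k-mer that the authors' event caller (GEM) wrote beside each event, and by no measured value. Of the 424 events, 184 (13.1% of the list) had the PBE-box word CACATG and 240 (17.0%) are called other events here. Among the other events, 143 had a k-mer with 5 G-box bases in a row (ACGTG), 83 had one with 4 (CGTG), and 14 had no k-mer. The remaining 984 events (69.9%) had a G-box k-mer.

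PIF7 is a basic helix-loop-helix transcription factor of the PHYTOCHROME INTERACTING FACTOR family. In light with a high red content, phytochrome B holds PIF7 back; a drop in the red to far-red ratio, the signal of neighbouring plants, lets PIF7 act on genes of auxin synthesis, cell elongation and shade avoidance. PIFs bind as dimers to the palindromic G-box CACGTG and to the PBE-box CACATG, a related E-box that reads CATGTG on the other strand.

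The study followed PIF binding, the histone variant H2A.Z and RNA in light-grown seedlings moved to low R:FR. The event list came from chromatin immunoprecipitation (ChIP-seq) with a MYC antibody in pif457 PIF7:PIF7:4xMYC seedlings, a pif457 mutant background that carries PIF7 with 4 copies of the MYC tag; the name of the line gives the PIF7 promoter as its driver. The 30 min low R:FR replicates 1 and 2 were set together against white light replicates 1 and 2 of the same line, so an event is a place where low R:FR seedlings had more tagged PIF7 than white light seedlings. A first list at ZT4 (4 h after dawn) set low R:FR replicates 1 and 2 of this line against wild type with IgG. A second ZT4 list had the same line on both sides, but the sample numbers given for its treated and control side run against the titles of those samples, so no direction of light is read from it. By those numbers, the sample titled low R:FR replicate 1 entered both ZT4 lists, so they are not independent. RNA-seq covered pif457 PIF7:PIF7:4xMYC seedlings given low R:FR for 5, 10 or 30 min, or kept in white light (3 libraries each). It also covered wild type and pif457 seedlings, each after 30 min of low R:FR and in white light (2 libraries each), and wild type seedlings after 2 h of low R:FR and in white light (3 libraries each). Nothing in the labels says that replicates were separate cultures, so p-values measure the spread between these libraries, which may be technical.

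The genotype and tissue were checked in the RNA tables, in TPM (transcripts scaled to a fixed total), a level per length. PIF7 RNA was 0.35 and 1.47 TPM in pif457 under low R:FR for 30 min and 1.24 and 0.84 TPM in pif457 in white light, against 21.6 and 23.4 TPM in wild type after 30 min and 28.0 and 25.4 TPM in wild type in white light. In the tagged line it was 74.5, 70.0 and 78.6 TPM after 30 min, against 136, 119 and 123 TPM in white light, a fall of its own (-0.76, limma adjusted p = 0.0012); levels in the 2 tables were normalized separately. PIF4 had 3.12 and 6.36 TPM in pif457 after 30 min and 11.9 and 11.3 TPM in pif457 in white light, against 13.7 and 14.8 TPM in wild type after 30 min and 32.5 and 47.1 TPM in wild type in white light. PIF5 had 1.60 and 2.45 TPM in pif457 after 30 min and 2.71 and 4.03 TPM in pif457 in white light, against 19.2 and 21.3 TPM and 33.2 and 42.7 TPM in the same wild type groups. All 3 genes were thus lower in pif457 than in wild type under the same light. In the tagged line, over white light and all times, PIF4 lay between 12.9 and 22.4 TPM and PIF5 between 2.68 and 5.82 TPM. The 3 green shoot markers summed to between 35600 and 64600 TPM and the 3 root markers to between 1.64 and 11.7 TPM over all groups. The sums are of different genes, so they show green shoot RNA in every library but do not measure its share. Libraries held between 1.24% and 23.1% of their TPM in ribosomal and organellar genes, the highest being pif457 30 min replicate 1.

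At some of the positions where the second ZT4 list also has an event within 100 bp, that list gives a longer word. Where the longer word holds the short core, it shows what lies around such a core at the ZT4 event. At most of the shared positions the second ZT4 list gives none. The sequences are printed because the core is what separates these events from the rest of the list. Capitals mark the PBE-box in the first set, and n stands for any base. Each name is the gene nearest to the event, and the words are those of the deposited list.
IBH1, chromosome 2, position 17907249: gCACATGgct
AT1G80290, chromosome 1, position 30187651: tCACATGggac
PAR1, chromosome 2, position 17838387: gCACATGgga
GASA6, chromosome 1, position 28052242: tCACATGggag
TCP11, chromosome 5, position 2680703: gagCACATGgct
RLP32, chromosome 3, position 1644539: gCATGTGgga
HAT1, chromosome 4, position 9738557: ccangtgggatgt
All positions are on the TAIR10 build. The word at RLP32 is the PBE-box read from the other strand. At HAT1 the longer word has n at the base where the G-box and the PBE-box part, so it covers both. Read with CACATG forward, the second ZT4 list held 30 k-mers with a PBE-box anywhere in the list, and 25 of the 30 had G as the next base, 18 of them GG and 7 GC.

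For the other events the capitals mark the part of the G-box that is left, ACGTG or CGTG. In the last 2 words they mark a whole G-box.
ORG1, chromosome 5, position 21688764: tgACGTGggtcg
AT1G01570, chromosome 1, position 206938: ACGTGgcgtg
PSY1, chromosome 5, position 23700445: ACGTGgcac
AT5G47380, chromosome 5, position 19220941: tgACGTGgcgc
LAX1, chromosome 5, position 97241: acgcgCGTGgg
CLC-F, chromosome 1, position 20785642: acgcgCGTGggcc
BBX29, chromosome 5, position 22115930: ggatCACGTGgttc
AT1G02350, chromosome 1, position 468965: tccCACGTGggtt
None of the first 6 words holds a whole G-box. The words at LAX1 and CLC-F share acgcgCGTGgg and differ in length. At BBX29 and AT1G02350 the 30 min list gave ACGTGG and ACGTGA. The second ZT4 list gave a G-box at its nearest event within 100 bp. Whether the 2 words belong to the same site was not tested. The most frequent 30 min k-mers of the other events were ACGTGG (63 events), ACGTGA (41), ACACGT (23) and GCACGT (16), followed by CGTGGG (15) and CGTGGA (14).

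Events without a G-box were weaker on the whole than G-box events. The median strength, the ChIP signal that the caller assigned to an event, was 104 for PBE-box events (range 60.2 to 314) and 99 for other events (range 59.2 to 403.3), against 122 for G-box events (range 58.2 to 793). The median fold of ChIP over control was 3.7 in both sets and 4.65 for G-box events. Control signal was close to equal, with medians of 29.4, 28.1 and 27.45 for PBE-box, other and G-box events. The medians of -log10 q were 8.315 for PBE-box and 8.15 for other events, against 13.07 for G-box events. All of these are the authors' values from 1 list built on pooled replicates, with no replicate spread, so the classes are described and not tested.

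The ranges overlapped widely. PBE-box events above the median strength of the whole list (114.45) numbered 82 of 184 (44.6%) and other events 82 of 240 (34.2%), against 540 of 984 G-box events (54.9%). Among the 100 strongest events, 4 had a PBE-box, 7 were other events and 89 had a G-box. The 14 events with no k-mer had a median strength of 125.2 and a median fold of 5.7. Words with 5 and with 4 G-box bases had median strengths of 97.8 and 99.

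**Figure D1:**
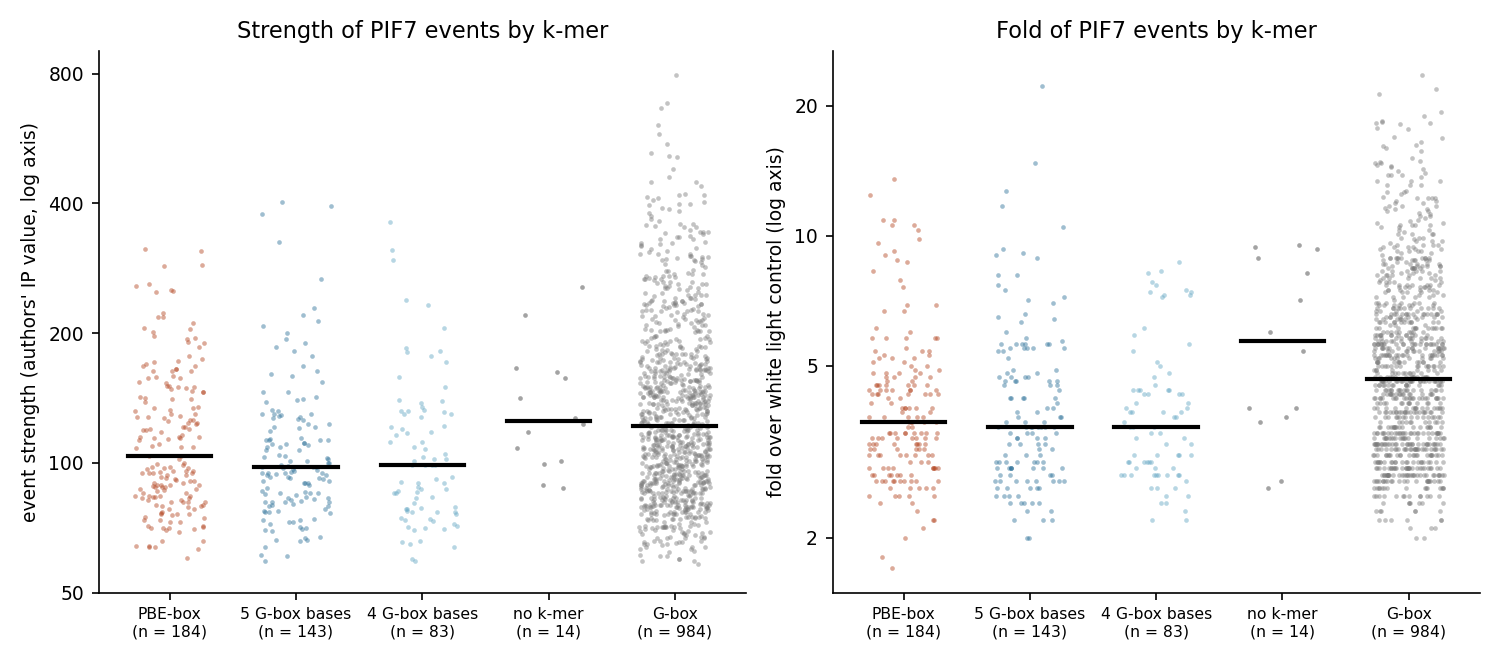
Strength (left, caller's signal, log axis) and fold of ChIP over control (right, log axis) of each 30 min event, by k-mer class; each point is 1 event and the black line is the median. PBE-box and other events fill the same range as most G-box events, with medians of 104 and 99 against 122, and lack the G-box events above 403.3.

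The shares of events inside or close to genes were much alike across the classes. Measured against TAIR10.1 gene spans, 27.7% of PBE-box and 27.9% of other events lay inside a protein-coding gene, against 26.4% of G-box events. Events within 1 kb of one, inside included, made up 70.7%, 76.2% and 74.5% in the same order. Outside genes, the median distance to the nearest one was 852 bp for PBE-box events, 632 bp for other and 647 bp for G-box events. Crowding differed more. Another event of the list lay within 200 bp of 9 PBE-box events (4.89%) and of 41 other events (17.1%), against 164 G-box events (16.7%). For 8 PBE-box and 26 other events that neighbour was, or included, a G-box event. Of the 14 events with no k-mer, 7 had a neighbour within 200 bp.

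The PBE-box events of greatest strength lay at AT5G02530 (strength 314, fold 7.6), HAT2 (310, fold 6.9), AT1G01100 (287.4, fold 9.2), AT2G40270 (286, fold 6.9) and, inside the gene, IAA2 (260, fold 4.2). HAT2 encodes a homeodomain-leucine zipper factor of the shade response and IAA2 an Aux/IAA repressor of auxin signalling. The next 5 lay inside AT1G66940 (257), at a place with no gene within 3 kb (251.4, fold 13.5), and at IBH1 (250.6), AT1G09250 (249, fold 9.6) and AT1G80290 (222.5). IBH1 encodes a helix-loop-helix inhibitor of cell elongation. The first PBE-box event ranked 62 in the whole list.

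The other events reached higher, the first of them ranking 21. The strongest lay inside ORG1 (403.3, fold 12.7) and AT1G01570 (394.6, fold 10.5), then at AT1G64610 (378.8, fold 22.2), RTFL16 (362, fold 7.8) and PSY1 (325.7, fold 14.7). RTFL16 belongs to a family of small peptides that affect leaf shape, and PSY1 is a secreted tyrosine-sulfated peptide. The next 5 lay at FLP1 (312), AT2G35880 (295.1), AT5G47380 (267.3), AT2G44920 (255.6, with no k-mer) and ORP2A (239). At PSY1, AT5G47380 and AT2G44920 a separate G-box event lay 54, 75 and 108 bp away. All 20 of these events, 10 with a PBE-box and 10 other, had an event within 100 bp in both ZT4 lists.

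Over all members, 90 of the 184 PBE-box events (48.9%, Wilson 95% interval 41.8 to 56.1) and 124 of the 240 other events (51.7%, 45.4 to 57.9) had an event of the first ZT4 list within 100 bp, against 583 of 984 G-box events (59.2%, 56.1 to 62.3). For the second ZT4 list the shares were 54 PBE-box events (29.3%, 23.2 to 36.3) and 73 other events (30.4%, 24.9 to 36.5), against 658 G-box events (66.9%, 63.9 to 69.7). The intervals cover counting error only. Of the first ZT4 list's 1052 events, 90 (8.56%) lay near a 30 min PBE-box event, 117 (11.1%) near an other event and 569 (54.1%) near a G-box event. Of the second list's 998 events these were 55 (5.51%), 70 (7.01%) and 649 (65%).

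Much of the gap for the first ZT4 list went with strength. Above the 30 min list's median strength, 63 of 82 PBE-box events and 63 of 82 other events (76.8% each) were in the first ZT4 list, against 441 of 540 G-box events (81.7%). Below it, 27 of 102 PBE-box (26.5%) and 61 of 158 other events (38.6%) were, against 142 of 444 G-box events (32%). The second ZT4 list kept a gap at both strengths. Above the median it held 44 of 82 in each set (53.7%), against 469 of 540 G-box events (86.9%). Below it, the list held 10 of 102 PBE-box (9.8%) and 29 of 158 other events (18.4%), against 189 of 444 G-box events (42.6%).

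**Figure D2:**
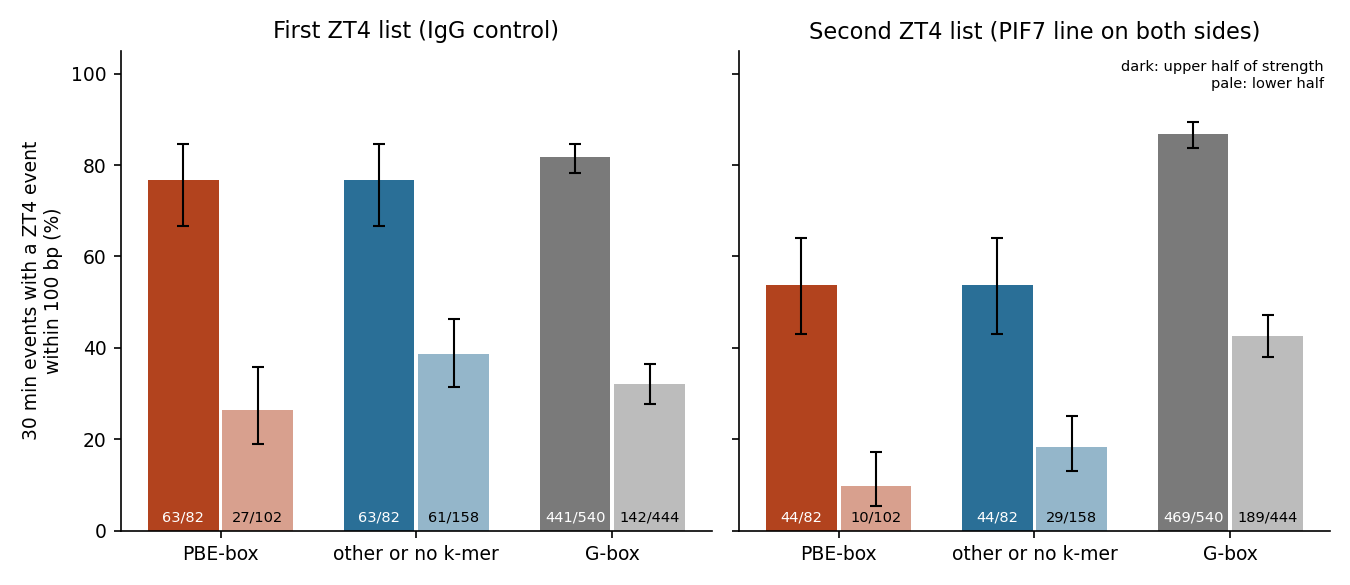
Share (%) of 30 min events with an event of the first (left) or second (right) ZT4 list within 100 bp, by k-mer class; dark bars are events above the 30 min list's median strength, pale bars those below, and lines are Wilson 95% intervals. In the first list the strong PBE-box and other events reach 76.8% against 81.7% for G-box events, and in the second 53.7% against 86.9%.

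The k-mer class was mostly kept between the 30 min and the first ZT4 list. Of the 90 PBE-box events found there, 61 had a PBE-box word again, 28 an other word and 1 a G-box. Of the 124 other events, 114 had an other word again, 7 a G-box and 3 no k-mer. In the second ZT4 list most of the shared places had no k-mer: 37 of the 54 PBE-box events had none, 13 had a PBE-box and 4 an other word with n. Of the 73 other events, 38 had none, 27 an other word, 4 a G-box and 4 a PBE-box. G-box events kept a G-box word at 578 of 583 places in the first list and at 648 of 658 in the second.

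To see what the RNA near these events did, each event was given the protein-coding gene whose span was nearest, within 3 kb. This gave 175 genes for PBE-box events and 225 for other events, 10 of them shared, 390 together. A G-box event also lay within 3 kb of 42 of the PBE-box genes and 72 of the other genes. Genes near these events were well expressed before treatment. Their median level in the tagged line in white light was 22.2 TPM for PBE-box and 15.5 TPM for other events, against 11.8 TPM for genes nearest to G-box events and 8.6 TPM for protein-coding genes nearest to no event.

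After 30 min of low R:FR, the share of genes that rose near events without a G-box was close to that near G-box events, and few fell. Of 166 tested genes near PBE-box events, 52 rose (31.3%) and 1 fell (0.602%), and of 208 near other events, 60 rose (28.8%) and 3 fell (1.44%). Near G-box events, 213 of 788 rose (27%) and 8 fell (1.02%). Of all 24589 genes tested, 3.8% rose and 1.03% fell, and of genes nearest to no event, 2.89% rose. A gene was called at an adjusted p under 0.05 from limma on log2(TPM + 1) with Benjamini-Hochberg adjustment over all genes; fold changes on this scale understate the change of low genes. The median change was 0.24 (log2) near PBE-box events and 0.25 near other events, against 0.24 near G-box events and 0.05 over all genes.

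Leaving out every gene with a G-box event within 3 kb, 31 of 126 PBE-box genes (24.6%) and 29 of 142 other genes (20.4%) rose. A fit on only these 6 libraries called 34 PBE-box genes (20.5%) and 32 other genes (15.4%) as raised, with 1.42% of all genes. The seed storage markers CRA1 and CRU3 also summed higher at 30 min, to between 33.7 and 426 TPM, against 2.96 to 41.0 TPM in white light; their part in the result was not tested. Without 30 min replicate 2, the library highest in both, 57 PBE-box and 62 other genes rose (34.3% and 29.8%), with 5.14% of all genes. In whole seedlings, more RNA per cell and more cells of a type cannot be told apart.

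**Figure D3:**
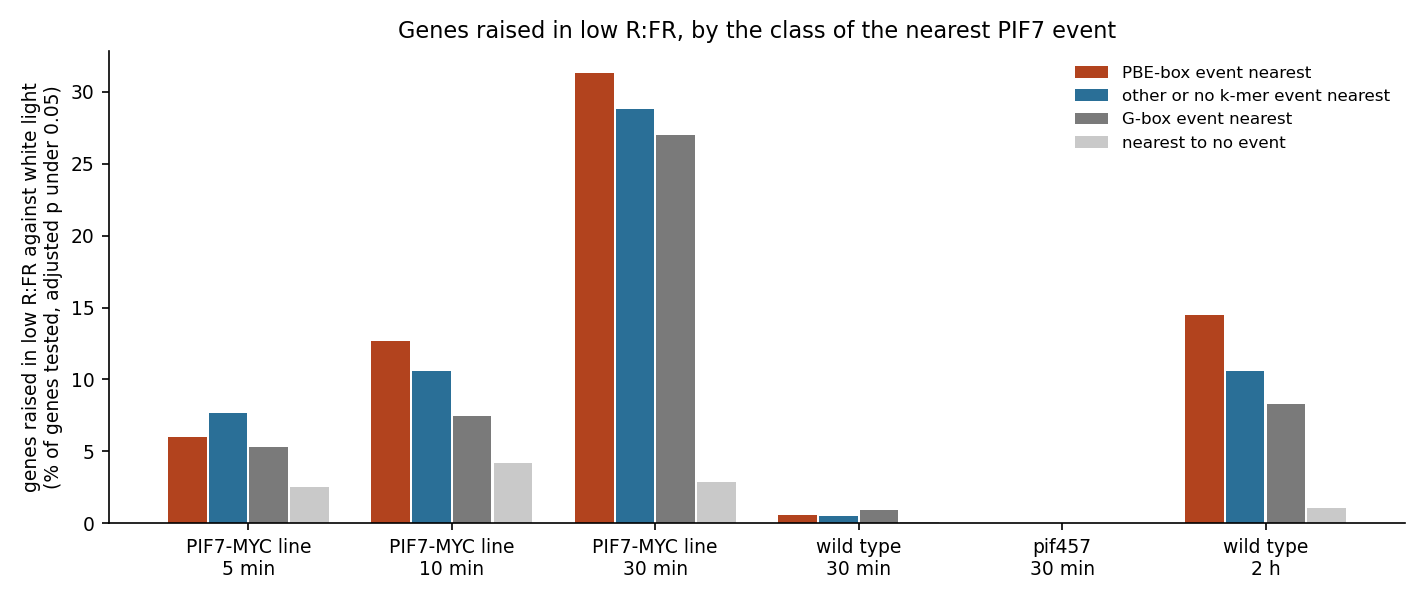
Share (%) of tested genes raised (limma, adjusted p under 0.05) in each comparison, by the class of the nearest 30 min event. At 30 min in the tagged line 31.3% of PBE-box and 28.8% of other genes were raised, against 27% of G-box genes and 2.89% of genes nearest to no event; the pif457 30 min bars are at 0 for all event classes.

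**Figure D4:**
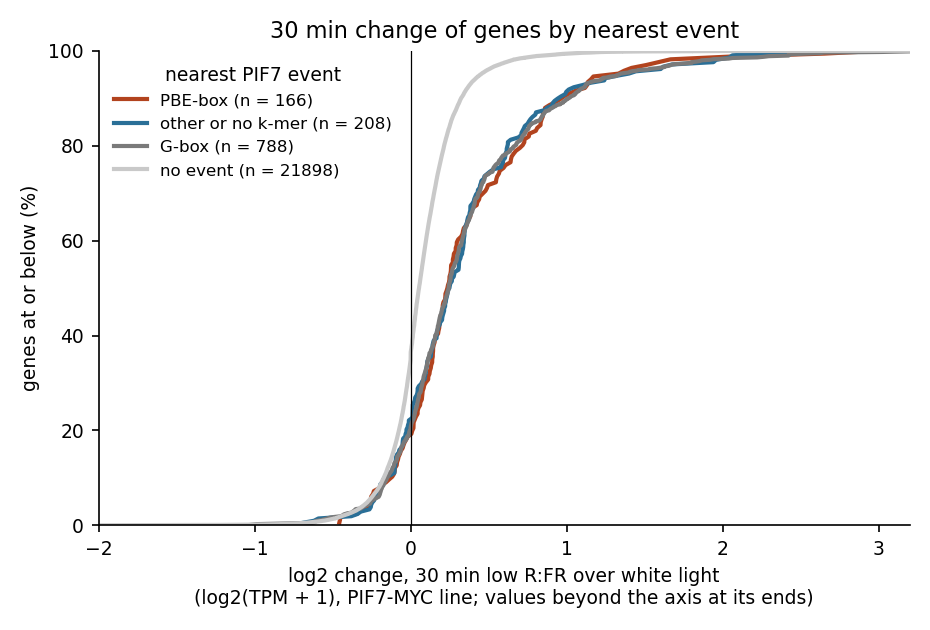
Cumulative share of genes (y axis) by 30 min log2 change over white light in the tagged line (x axis), by the class of the nearest event. The curves of PBE-box, other and G-box genes run close together, with medians of 0.24, 0.25 and 0.24.

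The share of raised genes is also given by event strength and by recurrence at ZT4, as a description with no test. Of genes at PBE-box events above the list's median strength, 24 of 73 rose (32.9%), and below it 28 of 93 (30.1%). For other events these were 26 of 70 (37.1%) and 35 of 141 (24.8%), and for G-box events 159 of 443 (35.9%) and 80 of 400 (20%). Where an event was in both ZT4 lists, 14 of 42 PBE-box genes and 19 of 53 other genes (35.8%) rose, against 150 of 398 G-box genes (37.7%). Where it was in neither, 19 of 74 PBE-box genes (25.7%) and 26 of 92 other genes (28.3%) still rose, against 41 of 242 G-box genes (16.9%). Genes near ACGTG words and near CGTG words rose at 28.5% (35 of 123) and 32.5% (25 of 77), and near events with no k-mer at 16.7% (2 of 12).

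The 2 largest changes near PBE-box events were those of shade regulators. HAT1, a homeodomain-leucine zipper factor of the shade response and close kin of HAT2, stood at 223, 214 and 242 TPM at 30 min, against 28.8, 28.0 and 24.3 TPM in white light. Every low R:FR library lay far above every white light library, a change of 3.02 ± 0.09 (log2, SE; limma adjusted p = 3.11e-08). PAR1, a helix-loop-helix protein that restrains the shade response, had 28.1, 32.2 and 25.9 TPM, against 3.65, 4.07 and 3.45 TPM in white light (2.65, adjusted p = 2.52e-06 from limma). HAT2 had 68.2, 65.0 and 68.4 TPM, against 21.8, 19.4 and 20.3 TPM (1.67, limma adjusted p = 2.52e-06), a smaller change than that of AT1G09250 (2.06). In all 3 genes the groups did not overlap, and a G-box event also lay within 3 kb of each. Groups without overlap were a condition for naming a raised gene here and in the next paragraphs. All 52 raised PBE-box genes and all 60 raised other genes met it. The PBE-box event at HAT1 was modest, with a strength of 96.9 and a fold of 4.5. PAR1 had a PBE-box event (211.7, fold 10.6) and a CGTGGA event (184.3, fold 7.5).

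The largest 10 changes near PBE-box events were, beside these 4 genes, those of AT3G51660 (1.59), ZIF1 (1.51), AR781 (1.42), AT5G01790 (1.37), OBP4 (1.33) and CYCP4;1 (1.17), all past the limma threshold. ZIF1 is a vacuolar transporter needed for zinc tolerance, OBP4 a DOF transcription factor and CYCP4;1 a P-type cyclin. A G-box event also lay within 3 kb of AT1G09250, ZIF1, OBP4 and CYCP4;1, but not of AR781 or AT5G01790. AT3G51660, with no G-box event within 3 kb, had 33.2, 38.4 and 33.8 TPM after 30 min, against 11.7, 12.0 and 9.47 TPM in white light. Its groups did not overlap (1.59 ± 0.14, limma adjusted p = 9.21e-05). Its PBE-box event had a strength of 158.5 and a fold of 10.3. The 1 gene that fell was MAT3, a methionine adenosyltransferase, at 191, 175 and 181 TPM, against 258, 237 and 257 TPM (-0.46, limma adjusted p = 0.00141).

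Near other events, the largest change was that of PAR1, described above, and the next that of YUC9, a flavin monooxygenase of auxin synthesis. It had 4.63, 5.29 and 5.06 TPM at 30 min, against 0.19, 0.36 and 0.12 TPM in white light. All 3 white light values were under 1 TPM and the groups did not overlap (2.30 ± 0.10 on the log2(TPM + 1) scale, limma adjusted p = 1.05e-06). Its ACACGT event was of strength 126 and fold 3.0, and a G-box event lay within 3 kb. AT1G09250 (2.06), named above, came next, being nearest to 1 PBE-box, 1 other and 1 G-box event. RTFL16 stood at 174, 163 and 165 TPM, against 38.4, 41.0 and 40.1 TPM (2.04, limma adjusted p = 9.62e-09). Here too every low R:FR library was above every white light library. The gibberellin receptor gene GID1A, with 2 other events of strength 213.9 and 141.8, had 57.5, 53.2 and 63.4 TPM, against 17.3, 18.1 and 19.2 TPM (1.62, limma adjusted p = 9.85e-07). A G-box event also lay within 3 kb of RTFL16 and of GID1A.

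ATL8 (1.96), FLP1 (1.94), HSFC1 (1.68), AT1G21050 (1.60) and RGL3 (1.44) also rose. A G-box event lay within 3 kb of FLP1, HSFC1 and AT1G21050, but not of ATL8 or RGL3. ATL8 is a RING-type ubiquitin ligase, HSFC1 a heat shock factor and RGL3 a DELLA repressor of gibberellin responses. The 3 genes that fell were AT1G06000 (-0.70), CDF1 (-0.62), a DOF repressor of flowering, and EXPA5 (-0.59), an expansin that loosens cell walls. EXPA5 had 13.2, 14.2 and 14.4 TPM, against 23.3, 18.1 and 23.5 TPM (limma adjusted p = 0.0136). Each of these 3 calls was lost without white light replicate 3 (adjusted p = 0.0618, 0.057 and 0.0582 by limma, in the order named). That of AT1G06000 was also lost without 30 min replicate 1 (0.0664), that of CDF1 without white light replicate 1 (0.0539), and that of EXPA5 without either of these (0.0586 and 0.0529).

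Not every strong event lay near a called gene. Of the genes at the 10 strongest PBE-box events, HAT2, AT1G09250, IAA2 and AT2G40270 rose. AT5G02530, at the strongest, had a change of 0.26 (limma adjusted p = 0.0891) and AT1G01100 one of -0.10 (adjusted p = 0.507). IBH1 had 7.65, 5.68 and 7.45 TPM after 30 min, against 3.76, 4.31 and 2.64 TPM in white light; the groups did not overlap, yet the change of 0.80 missed the threshold (limma adjusted p = 0.0595). Of the genes at the 10 strongest other events, RTFL16, FLP1, AT2G35880, ORG1, AT1G64610, PSY1 and ORP2A rose, though the calls of ORG1, AT1G64610 and PSY1 were lost without white light replicate 3, 30 min replicate 1 or 30 min replicate 3, and that of ORP2A without 30 min replicate 3. That of ORG1 was also lost without 30 min replicate 2, that of AT1G64610 without white light replicate 2 and that of PSY1 without white light replicate 1, with limma adjusted p between 0.0512 and 0.112 over all these fits. AT1G01570 had a change of 0.05, AT5G47380 of 0.34 and AT2G44920 of 0.07.

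Of 120 genes in 11 lists of hormone, growth and light signalling, 17 were nearest to an event without a G-box, and 10 of the 17 rose and 1 fell at 30 min. Over all 120 genes 43 rose and 4 fell, and of the 23 nearest to a G-box event 21 rose. HAT1, HAT2, PAR1, YUC9, IAA2 and GA2OX6 were nearest to both kinds of event. The 3 shade regulators near such events (HAT1, HAT2, PAR1) rose, as did 10 of the 13 on that list. Of 5 Aux/IAA and GH3 genes near them, IAA2 (1.06) and IAA16 (1.14) rose; IAA3 (0.21), GH3.1 (0.08) and GH3.3 (0.09) did not pass the test. CPD, an enzyme of brassinosteroid synthesis, had 259, 254 and 232 TPM after 30 min, against 101, 117 and 116 TPM in white light, with the groups apart (1.16, limma adjusted p = 0.00025). The ethylene synthesis gene ACS8 (0.86) and HBI1 (0.55), a helix-loop-helix promoter of elongation, rose too, as did YUC9 and RGL3. GA2OX6 (0.35), IBH1 (0.80) and EXPA8 (0.22) did not pass. No gene of the clock, photomorphogenesis or phytochrome and PIF lists was nearest to an event without a G-box.

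**Figure D5:**
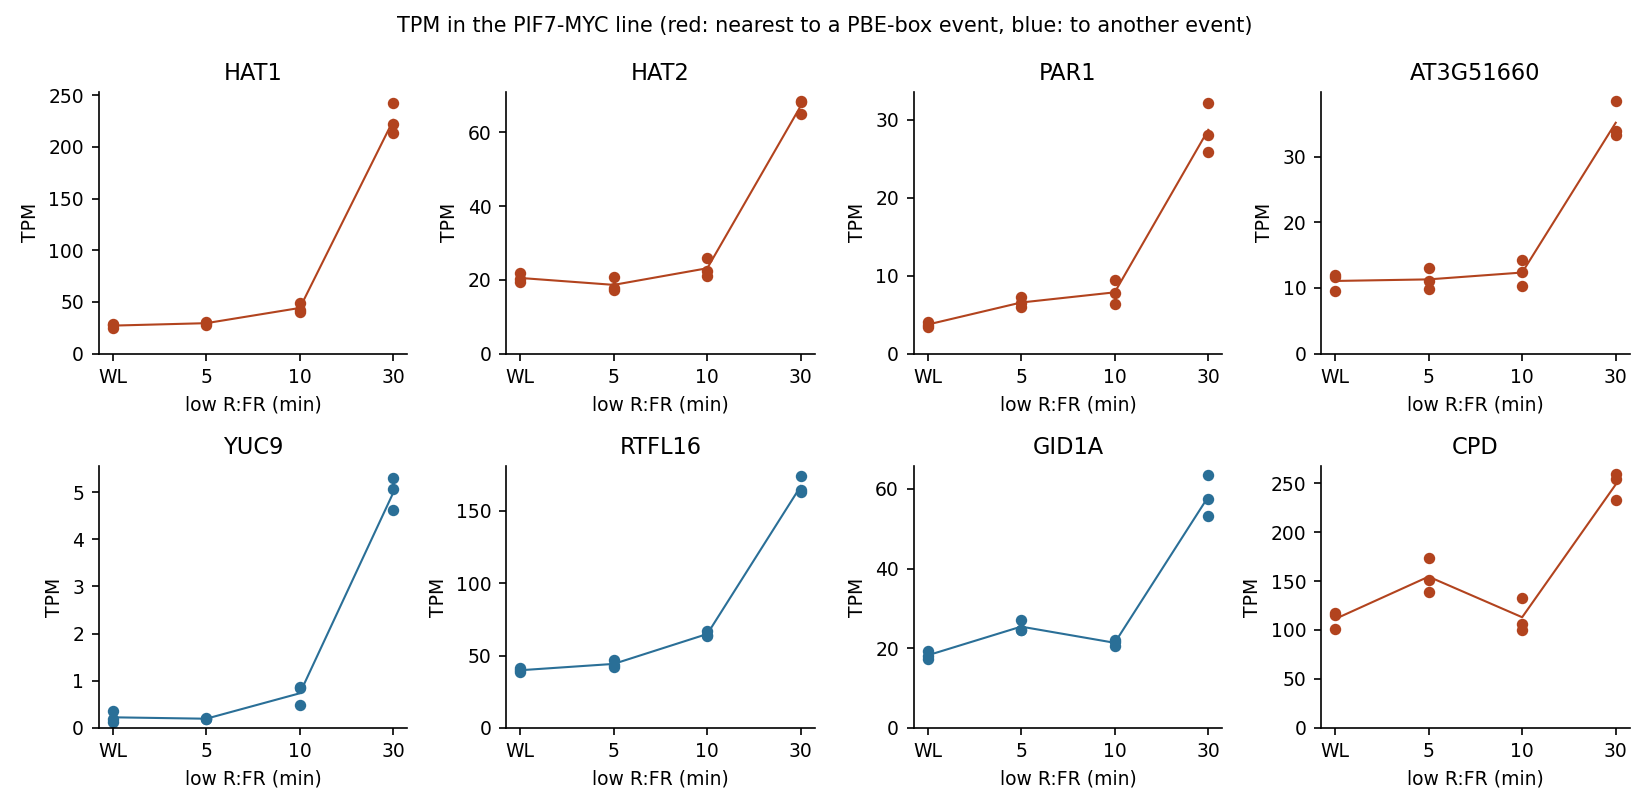
TPM in each library of the tagged line at 4 points (white light, then 5, 10 and 30 min of low R:FR), for genes near PBE-box events (red: HAT1, HAT2, PAR1, AT3G51660, CPD) and other events (blue: YUC9, RTFL16, GID1A); PAR1 and CPD also have an other event. Each gene is highest at 30 min, HAT1 at between 214 and 242 TPM and GID1A at between 53.2 and 63.4 TPM. A G-box event also lay within 3 kb of each gene except AT3G51660 and CPD.

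Fewer of these genes were called at the earlier times. All times are set against the same white light libraries, so their calls are not independent. At 5 min, 10 PBE-box genes rose (6.02%) and 8 fell (4.82%), and 16 other genes rose (7.69%) and 4 fell (1.92%), with 2.58% of all genes raised and 1.31% lowered. At 10 min, 21 PBE-box genes rose (12.7%) and 4 fell (2.41%), and 22 other genes rose (10.6%) and 10 fell (4.81%), with 4.19% of all genes raised and 2.24% lowered. Without genes that had a G-box event within 3 kb, 17 of 126 PBE-box genes (13.5%) rose at 10 min. Of the other genes so limited 7 of 142 rose (4.93%), near the share of all genes. The counts at both times rested on single libraries. The total of PBE-box calls at 5 min was 3 without 5 min replicate 3, 5 without 5 min replicate 1, 6 without white light replicate 3 and 7 without white light replicate 1 or 5 min replicate 2. That of other calls was 5, 6, 6, 9 and 8 without the same libraries. At 10 min the totals were 2 PBE-box and 6 other calls without white light replicate 3, and 8 and 7 without white light replicate 1. Without 10 min replicates 1, 2 and 3 in turn they were 9, 16 and 8 PBE-box and 14, 19 and 9 other calls. Without white light replicate 2 the 10 min totals were 37 PBE-box and 46 other calls (22.3% and 22.1%), with 14.5% of all genes called. Over all fits with 1 library left out, the share of all genes called also moved, between 0.888% and 3.28% at 5 min and between 0.432% and 14.5% at 10 min.

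HAT1 had 28.8, 28.0 and 24.3 TPM in white light, 30.5, 29.7 and 28.1 TPM at 5 min, 49.4, 42.6 and 40.5 TPM at 10 min and 223, 214 and 242 TPM at 30 min. It was thus above every white light library by 10 min (0.69, limma adjusted p = 0.00681), with a change at 5 min of 0.12 (adjusted p = 0.507). RTFL16 (0.69), AT1G09250 (0.56) and YUC9 (0.50) had also risen by 10 min. The call of YUC9 was lost without white light replicate 1 or 3 or 10 min replicate 2 or 3 (limma adjusted p between 0.0667 and 0.109). PAR1 (0.90) and CYCP4;1 (0.67) passed at 10 min too. Both calls were lost without white light replicate 3 (limma adjusted p = 0.0575 and 0.0511). PAR1 had passed at 5 min as well (0.68), but lost that call without any 1 library other than white light replicate 2. HAT2 had changes of -0.13 at 5 min and 0.16 at 10 min that did not pass the test. GID1A had 24.7, 24.6 and 27.0 TPM at 5 min and 20.5, 22.1 and 21.5 TPM at 10 min, so it had risen at 5 min (0.46, limma adjusted p = 0.00889) and not past the threshold at 10 min (0.22, adjusted p = 0.0866). MAT3 fell at 5 min (-0.66), at 10 min (-0.25) and at 30 min (-0.46), though its 10 min call was lost without any 1 of the 6 libraries other than white light replicate 2 (limma adjusted p between 0.0675 and 0.124).

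Wild type and pif457 seedlings carry no tagged PIF7, and with 2 libraries a group few genes were called at all. In wild type after 30 min, 1 of 169 PBE-box genes rose (HAT1) and 1 of 214 other genes (YUC9), and none fell, with 0.119% of all 24384 genes raised and 0% lowered by limma. At an unadjusted p under 0.05 the counts were 26 raised (15.4%) and 3 lowered (1.78%) PBE-box genes and 25 raised (11.7%) and 4 lowered (1.87%) other genes, with 7.05% of all genes raised and 1.68% lowered. The root markers summed to 10.7 and 10.8 TPM after 30 min, against 4.64 and 6.23 TPM in white light, and the green shoot markers to 35600 and 39600 TPM, against 46800 and 47400 TPM; their part in these values was not tested. HAT1 had 88.0 and 85.9 TPM after 30 min, against 22.0 and 26.4 TPM in white light, with no overlap (1.81, limma adjusted p = 0.0105). This call was lost when any 1 of the 4 wild type libraries was left out. The limma adjusted p was 0.0815 and 0.0705 without white light replicates 1 and 2, and 0.141 and 0.0804 without 30 min replicates 1 and 2.

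In pif457 no PBE-box or other gene was called by limma in either direction, with 0.0082% of all genes raised and 0.0041% lowered. At an unadjusted p under 0.05, the counts were 7 higher (4.14%) and 18 lower (10.7%) PBE-box genes and 4 higher (1.87%) and 19 lower (8.88%) other genes, with 1.02% of all genes higher and 8.39% lower, so the shares lower were near that of all genes. The median change over all genes was itself -0.14, and 1 library carried it: it was 0.028 without pif457 30 min replicate 1, the library with 23.1% ribosomal and organellar TPM, and -0.026 with those genes removed. The seed markers summed to 2.98 and 19.7 TPM in pif457 after 30 min, against 32.1 and 141 TPM in pif457 in white light, and the green shoot markers to 38200 and 42600 TPM, against 46000 and 49000 TPM; their part was not tested. Without pif457 30 min replicate 2, which leaves that library as the only one of its group, 44 PBE-box (26%) and 55 other genes (25.7%) were called, nearly all lowered, and so were 22.7% of all genes. In that fit the lone library is assumed to vary like the other groups.

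YUC9 was the only one of these genes for which the 30 min change differed between pif457 and wild type. It had 0.24 and 0 TPM in pif457 after 30 min, against 0.41 and 0.19 TPM in pif457 in white light, and 17.8 and 15.9 TPM in wild type after 30 min, against 0.5 and 0.22 TPM in wild type in white light. The difference of the changes was -3.93 (limma adjusted p = 0.00883), and the wild type libraries at low R:FR stood apart from all others. For 0.0082% of all genes the change was higher in pif457 and for 0.0328% lower, and the median difference over all genes was -0.20, or -0.017 without pif457 30 min replicate 1 and -0.084 with ribosomal and organellar genes removed. At an unadjusted p under 0.05, 1 PBE-box gene was higher and 25 were lower in pif457 (14.8%), and 1 other gene was higher and 34 were lower (15.9%), with 0.796% of all genes higher and 10.8% lower. No PBE-box gene and 1 other gene passed the adjusted test, but without pif457 30 min replicate 2 the totals were 37 (21.9%) and 39 (18.2%), with 13% of all genes called.

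The 52 PBE-box genes raised in the tagged line at 30 min had a median change of 0.29 in wild type, where 39 of the 52 lay above the median of all genes. In pif457 their median change was -0.05, with 37 of 52 above the all-gene median of -0.14. For the 60 raised other genes the medians were 0.19 in wild type and -0.11 in pif457, with 40 and 38 above the medians of all genes. The pif457 medians turned with 1 library: without pif457 30 min replicate 1 they were 0.20 for the PBE-box genes (37 of 52 above the all-gene median of 0.03) and 0.12 for the other genes (39 of 60 above it). With ribosomal and organellar genes removed they were 0.10 and 0.04, with an all-gene median of -0.03. These tables share no library with the tagged line's, so the values are a separate measurement, given as a description.

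After 2 h in wild type, 24 of 166 PBE-box genes rose (14.5%) and 2 fell (1.2%), and 22 of 208 other genes rose (10.6%) and 2 fell (0.962%). Of all 25331 genes tested, 1.24% rose and 0.734% fell, and of 783 genes near G-box events 65 rose (8.3%). Without genes that had a G-box event within 3 kb, 17 of 126 PBE-box genes (13.5%) and 8 of 142 other genes (5.63%) rose. The green shoot markers summed to between 44700 and 52400 TPM after 2 h, against 55800 to 64600 TPM in white light; their part was not tested. The PBE-box total was 15 without white light replicate 3, 17 without 2 h replicate 1, 15 without 2 h replicate 2 and 16 without 2 h replicate 3, with between 1.04% and 1.98% of all genes called over all fits with 1 library left out. Where the event was in both ZT4 lists, 10 of 42 PBE-box genes (23.8%) and 11 of 53 other genes (20.8%) rose, and where in neither, 6 of 76 (7.89%) and 5 of 92 (5.43%). Of the genes raised in the tagged line at 30 min, 14 of the 52 PBE-box genes and 12 of the 60 other genes were raised at 2 h.

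Hormone genes that had not passed the test at 30 min in the tagged line were among those raised at 2 h in wild type. GH3.3, an enzyme that conjugates auxin to amino acids, had 107, 116 and 116 TPM after 2 h, against 6.04, 6.16 and 7.38 TPM in white light. The groups lay far apart (3.93, limma adjusted p = 3.51e-06), and its CGTGGT event had a strength of 181 and a fold of 7.2. GA2OX6, which inactivates gibberellins, changed by 2.70 and IAA3 by 1.37, both past the threshold. ACS8 and FLP1, which had passed at 30 min in the tagged line (0.86 and 1.94), were raised at 2 h in wild type too. ACS8, with a PBE-box event (120.9, fold 12.4) and an ACGTGG event (142.1, fold 4.9), had 31.5, 34.5 and 22.9 TPM, and was listed at 0.41, 0 and 0 TPM in white light (4.75 on the log2(TPM + 1) scale, adjusted p = 0.000114 from limma). FLP1 had 42.8, 51.0 and 39.6 TPM, against 0, 0.70 and 1.76 TPM in white light (4.76, limma adjusted p = 0.000388).

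Genes raised at 30 min in the tagged line took different levels at 2 h in wild type. HAT2 (2.80), IAA2 (2.46), AT3G51660 (2.38), YUC9 (3.28) and RTFL16 (1.73) were raised. HAT1 had 26.9, 30.8 and 28.7 TPM after 2 h, against 9.32, 16.0 and 16.9 TPM in white light (1.02, limma adjusted p = 0.0466). PAR1 had 35.6, 28.7 and 17.7 TPM, against 5.76, 11.2 and 2.01 TPM (2.12, limma adjusted p = 0.0499), and the call of HAT1 was lost without any 1 of the 6 libraries, that of PAR1 without any 1 but white light replicate 2, with limma adjusted p between 0.0501 and 0.154. CPD (-0.26), GID1A (-0.26) and ZIF1 (-0.18) did not pass the test. Line, time and experiment all differ between these tables, so the changes were not tested against each other.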

How the data were processed

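ChIP-seq events and RNA levels are the authors' deposited tables. Reads were mapped with Bowtie2 2.1.0 (ChIP-seq) and with STAR 2.6.0c and RSEM 1.3.0 (RNA-seq) on TAIR10, per the submitters' processing notes; the version and settings of GEM are not given in the sources used here. The event lists give, per the file headers, a ChIP and a control signal, their ratio (fold), a -log10 q and a k-mer. Replicates were pooled by the authors before calling, so events have no replicate spread. The RNA tables hold the authors' deposited TPM, scaled to the same total in each library; the read depth is unknown.

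Events were classed by their deposited k-mer on both strands. An event was shared when another list had one within 100 bp. Each event was joined to the protein-coding gene with the nearest span within 3 kb, using the 27444 genes of the NCBI RefSeq table (assembly TAIR10.1), which gives no strand here. Positions printed are those of the files. For each RNA table, limma 3.58.1 (R 4.3.3) was run on log2(TPM + 1) with an expression trend over all its libraries, without a replicate block, and p-values were adjusted by Benjamini-Hochberg over all genes with any TPM above 0. The tables were normalized separately and were never tested against each other. Counts were made with Python 3.11.15, pandas 2.3.3 and scipy 1.17.1, and figures with matplotlib 3.10.9. The limma step was also run on simulated data, and the outcome is not given here.

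Genes named are those at the 10 strongest PBE-box and 10 strongest other events, and up to 10 raised and 10 lowered at 30 min near each set. The raised and lowered ones were also required to have groups that did not overlap. Every gene of the 11 lists nearest to such an event is named too, with PIF4, PIF5 and PIF7. The events and the gene lists were chosen with earlier results of these data known. Alternatives tried were a pseudocount of 0.1, a mean TPM of at least 1, a replicate block, only the groups compared, removal of ribosomal and organellar genes, each library left out, 1 kb in place of 3 kb, 50 and 200 bp in place of 100 bp, events above the median strength, and genes with a G-box event within 3 kb left out. H2A.Z libraries and RNA of seedlings returned to white light were not used for comparisons here.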

Additional observations from a re-analysis of the deposited data

Results flagged for a closer look

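YUC9, nearest to an ACACGT event, drew attention because its 30 min change differed between pif457 and wild type by a test of that difference (-3.93, log2(TPM + 1), limma adjusted p = 0.00883). It was lower in both pif457 libraries at low R:FR (0.24 and 0 TPM) than in both wild type ones (17.8 and 15.9 TPM). With a pseudocount of 0.1 the difference was -6.33 (adjusted p = 0.0546 from limma), since 3 of the 4 groups lie near 0.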

How the results depend on the processing

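No called change of a named gene turned direction. The balance of PBE-box calls at 5 min did, from 10 raised and 8 lowered to 2 and 4 without white light replicate 3. It was 3 and 4 without 5 min replicate 2, and 1 and 2 without 5 min replicate 3. The median change over all genes in pif457 turned too, to 0.028 from the reported -0.14 without pif457 30 min replicate 1. So did the medians of the genes raised in the tagged line, to 0.20 (PBE-box) and 0.12 (other) from -0.05 and -0.11. Of 383 values of named genes under other settings 345 kept their call and 38 lost it, and of 460 with a library left out 346 kept it and 114 lost it. Totals of called genes are given as PBE-box then other, with reported totals in brackets. A replicate block moved the 5 min totals (18 and 20) to 7 and 9 and the 10 min total of other genes (32) to 20. The block changed no other total by over 1.5 times. Deviations of same-numbered libraries of different groups had median correlations of -0.00875 (2 h experiment), -0.0579 (tagged line) and -0.0166 (wild type and pif457 at 30 min). Single pairs ranged from -0.288 to 0.331 in the tagged line and from -0.26 to 0.366 in wild type and pif457 at 30 min. With 2 libraries a group the deviations mirror each other, and a median over pairs can hide single pairs. Whether the numbers pair libraries therefore cannot be told from these values. Fitting only the groups compared gave 11 PBE-box calls at 5 min, 2 and 6 (from 25 and 32) at 10 min, 35 and 34 (from 53 and 63) at 30 min, 0 PBE-box in wild type at 30 min (from 1) and 15 PBE-box at 2 h (from 26); it was not run for the difference between genotypes, which uses all 4 groups. A mean TPM of at least 1 gave 8 and 9 calls in wild type (from 1 and 1), 10 and 5 in pif457 (from 0 and 0) and 12 and 9 for the difference (from 0 and 1). Removing ribosomal and organellar genes gave 2 PBE-box calls in wild type and 1 in pif457, and a pseudocount of 0.1 gave 0 other calls for the difference. Events above the median strength, fewer by construction, gave 7 and 5 calls at 5 min, 13 and 16 at 10 min, 24 and 26 at 30 min, 0 PBE-box in wild type, and 17 and 11 at 2 h (from 26 and 24). Leaving out genes with a G-box event within 3 kb gave 14 other calls at 10 min, 32 and 32 at 30 min, 0 and 0 in wild type, 0 other for the difference and 10 other at 2 h. Without 1 library in turn the totals ranged from 3 to 13 and 5 to 20 at 5 min, 2 to 37 and 6 to 46 at 10 min, 36 to 58 and 45 to 65 at 30 min, 0 to 1 and 1 to 1 in wild type, 0 to 44 and 0 to 55 in pif457, 0 to 37 and 1 to 39 for the difference, and 15 to 21 and 16 to 23 at 2 h. The causes were not tested. Sharing with the second ZT4 list moved to 42.7% (PBE-box) and 47.6% (other) when each list was held to its stronger events, and to 22.9% and 38.3% (other) at 50 and 200 bp. Other events were 11.6% of the events above the median strength, and 6.89% of the list when words with an ACGT core were counted as G-box. The event lists have no replicates, TPM keeps no depth, and 2 libraries a group limit what wild type and pif457 can show.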
